A study of Homo sapiens with 15 samples.

Results

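The complete VP64 activation system, with guides, was compared with the same cell line carrying no activation domain. The members were 6 of the 15 libraries of the study, 3 from the line called here VP64 with guides and 3 from the line called no activation domain, and they were chosen by their labels. All lines derive from MelJuSo, a human melanoma cell line. In VP64 with guides, dCas12a (a Cas12a that no longer cuts DNA but is still led to a site by its guide RNA) is fused to VP64 and to 5 copies of the ALFA tag (5xALFA-dCas12a-VP64), the anti-tag nanobody is also fused to VP64 (nanobody-VP64), and a cassette of 3 guides is aimed at CD4. VP64 without guides has the same 2 fusions and no guide cassette. The line with no activation domain has 5xALFA-dCas12a and the nanobody alone, and it too has no guides, so it still holds the tagged dCas12a and the nanobody that all lines share. It differs from VP64 with guides in the activation domains and in the guide cassette together, and VP64 without guides is set beside both lines below. Each condition is 1 line, so an effect of the guides or of the domains cannot be told apart from other differences between the lines. The words with guides and without guides below name the lines. These are separate lines and not a time course. The labels do not state if a line is 1 clone or if its replicates come from different cultures, so the p-values reflect the spread of these libraries, which may be technical.

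VP64 is a synthetic activation domain built from tandem copies of a short acidic peptide of the herpes simplex virus protein VP16. It recruits Mediator, histone acetyltransferases and general transcription factors to the promoter at which it is placed. Cas12a can cut several guides out of a common transcript, and the ALFA tag is a short peptide bound tightly by its nanobody, so a tag array on dCas12a collects several nanobody-fused domains at a guide's site. Melanoma cells of this kind are dividing cells of the pigment lineage, and CD4, a co-receptor of T cells, is not a gene of that lineage.

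Sequencing depth ran from 15643705 to 19361567 expected counts per library in VP64 with guides and from 18567789 to 23072512 with no activation domain. Of 58721 annotated genes, 14961 passed the filter on low counts and were tested in all comparisons. Levels are counts scaled by library size (CPM), and differences are log2 fold changes from edgeR's quasi-likelihood test with Benjamini-Hochberg adjustment over all 14961 genes and a threshold of 0.05. A single value in parentheses after a gene is its log2 fold change in VP64 with guides against no activation domain, unless another comparison is named. Of 8 melanoma markers, 7 reached a mean of 1 CPM in every line compared, with summed levels of 518 to 603 CPM in VP64 with guides, 337 to 357 CPM in VP64 without guides and 361 to 380 CPM with no activation domain. Of 8 T cell markers, 5 were at 0 in all libraries of VP64 with guides and 4 with no activation domain, and IL7R carried nearly all of the rest. Because these are bulk RNA measurements, fewer cells of a type and less RNA per cell cannot be told apart.

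CD4 was an abundant RNA with guides and a trace without them (ENSG00000010610.9, chromosome 12, 6786858 to 6820808, hg38). It had 1927, 1942 and 1816 CPM in VP64 with guides (replicates A, B and C), against 8.65, 8.39 and 9.43 CPM in VP64 without guides and 4.14, 4.25 and 1.22 CPM with no activation domain. The 3 groups did not overlap, and the control libraries themselves differed, since replicate C was the lowest of them. Mean CPM was 592-fold higher in VP64 with guides than with no activation domain (log2 fold change 9.25, SE 0.186, adjusted p = 6.77e-21). In VP64 without guides it was 2.76-fold higher by mean CPM (log2 fold change 1.50, SE 0.21, adjusted p = 2.43e-06). By the exact 2-sided permutation test of TPM, p = 0.1 in each pair of these lines, which is the smallest value 3 libraries against 3 can give.

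Beyond CD4, the complete system and the control line differed at many genes. In VP64 with guides against no activation domain, 3892 genes (26.0% of those tested) were higher and 4055 (27.1%) were lower, and 578 and 384 of these differed at least 2-fold. In VP64 without guides, 3528 genes (23.6%) were higher and 3598 (24.0%) lower than in the same control libraries. VP64 with guides differed from VP64 without guides at 2889 genes that were higher (19.3%) and 3185 that were lower (21.3%). The median size of the log2 difference was 0.29 between VP64 with guides and the control, 0.24 between VP64 without guides and the control, and 0.22 between the 2 VP64 lines. These 3 comparisons share libraries, so their values are set side by side and not correlated.

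To ask which differences from the control were found in both VP64 lines, the 7126 genes called in VP64 without guides were sorted by their position in VP64 with guides. A gene was kept if it was called against the control in both lines in the same direction, and turned if it was called in both in opposite directions. It was at the control level if it was not called with guides and the 95% interval of its difference lay within 0.25 log2 units of 0. Without a call and with a wider interval it was undecided. By this rule 4694 genes were kept (31.4% of all tested and 65.9% of those called without guides), 974 were at the control level (6.51% of all tested), 429 were turned (2.87%) and 1029 were undecided. A further 1420 genes (9.49% of all tested) changed with guides only, meaning that they were called with guides while their interval without guides lay within the same 0.25.

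The kept genes were split almost evenly by direction, 2328 higher and 2366 lower. In the direct comparison of the VP64 lines, 1451 kept genes (30.9%) lay further from the control with guides, 573 (12.2%) lay closer to it and 2670 (56.9%) had no called difference. Of the 974 genes at the control level, 758 were called between the VP64 lines, in the direction of the control. That direction largely follows from how the class is defined, and the same libraries are used, so the count is not separate support. Without guides 595 of the 974 genes were higher and 379 lower, and their median difference in that line, 0.23 in size, was below the 0.38 of the kept genes.

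**Figure D1:**
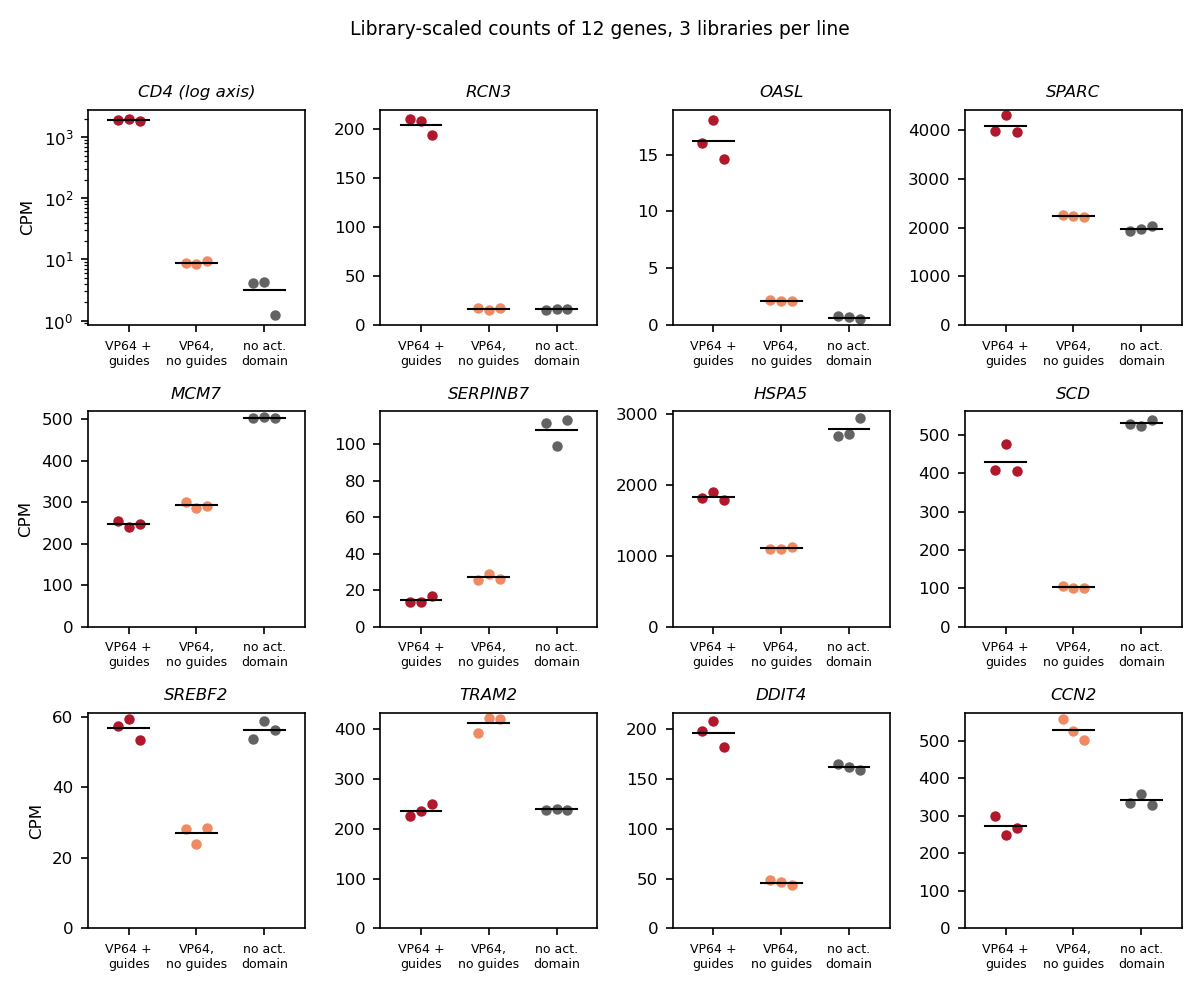
Library-scaled counts (CPM, y axis, logarithmic for CD4 only) of 12 named genes in VP64 with guides, VP64 without guides and no activation domain, 3 libraries each; points are libraries and bars are means. CD4, RCN3, OASL and SPARC stand highest with guides, MCM7 and SERPINB7 are low in both VP64 lines, and SREBF2 and TRAM2 with guides lie beside the control libraries.

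The genes with the largest excess over the control included genes already higher without guides and genes higher only with them. OASL, an interferon-induced relative of the oligoadenylate synthetases, had 16, 18.1 and 14.6 CPM in VP64 with guides, against 2.25, 2.1 and 2.09 CPM in VP64 without guides and 0.763, 0.724 and 0.522 CPM with no activation domain (log2 fold change against the control 4.61, SE 0.224, adjusted p = 8.71e-15). The groups did not overlap, and the line without guides lay between the others. SSUH2 followed at 4.27, the retinol dehydrogenase RDH5 at 3.25, TMEM92 at 3.03, the endothelial receptor kinase TIE1 at 2.93, the B cell receptor subunit CD79B at 2.86 and IFIT2, an interferon-induced RNA-binding protein, at 2.87, each as log2 difference of VP64 with guides from the control, and all were also higher than in VP64 without guides.

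RCN3, a calcium-binding protein of the secretory pathway (ENSG00000142552.7, chromosome 19, 49527618 to 49546962), did not share this intermediate step. It had 209.7, 208 and 193 CPM in VP64 with guides, against 17.5, 15.2 and 17 CPM in VP64 without guides and 15.2, 16.1 and 16.5 CPM with no activation domain. Only the libraries with guides stood apart, at 3.67, SE 0.063, adjusted p = 4.35e-21 on the log2 scale against the control, and without guides the difference was 0.05 (adjusted p = 0.613). PCDHB11, a clustered protocadherin, was 2.86 with guides and 0.40 (adjusted p = 0.313) without, where its interval of -0.26 to 1.06 was too wide to place it. TPT1-AS1 was 2.76 with guides, a value that is uncertain because it overlaps a gene on the other strand and no source used here gives the strandedness.

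Other large excesses were present in both VP64 lines. The phospholipase LIPH had 4.64, 6.3 and 4.74 CPM in VP64 with guides, 3.33, 4.4 and 4.56 CPM without guides and 0.545, 0.579 and 0.261 CPM in the control (3.52, SE 0.321, adjusted p = 4.9e-10 against the control), and the difference between the VP64 lines did not pass (0.36, adjusted p = 0.167). ILDR2, a membrane receptor, had 6.89, 5.78 and 7.01 CPM with guides, 10.8, 8.14 and 7.5 CPM without guides and 0.872, 1.01 and 0.957 CPM in the control, and it was lower with guides than without (-0.43, adjusted p = 0.0193). The sodium channel SCN3A (3.91), the adhesion molecule BCAM (2.16), the ephrin receptor EPHB2 (2.39) and the phosphodiesterase-like SMPDL3B (2.50) were kept too. The histone genes H2BC12 (1.98) and H2BC4 (2.16) were kept at these log2 values, but members of this family are near identical and reads may be split among them.

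The largest deficits were mostly present without guides. SERPINB7, a protease inhibitor of the serpin family, had 13.6, 13.4 and 17.1 CPM in VP64 with guides, 25.9, 29.1 and 26.3 CPM in VP64 without guides and 112, 99 and 113 CPM with no activation domain (log2 fold change against the control -2.88, SE 0.094, adjusted p = 4.01e-16). Every library with guides lay below every library without, and all 6 lay below the control. SERPINB2, plasminogen activator inhibitor 2, averaged 2.29 ± 0.367 CPM with guides, 4.56 ± 0.235 CPM without and 27.3 ± 0.816 CPM in the control (SD, n = 3 each; log2 fold change -3.56, SE 0.136, adjusted p = 1.36e-15). KISS1, which encodes a neuropeptide precursor first described as a metastasis suppressor in melanoma (-3.42), the gap junction gene GJA5 (-3.30), the transcription factor TOX (-3.02), and MYO7B (-2.37) were lower with guides than without as well, though the call of MYO7B against the control was lost with an offset for effective gene length. The calcium-binding protein CALB2 was the reverse case, at 3.57 ± 0.576 CPM with guides, 2.02 ± 0.492 CPM without and 17.5 ± 1.08 CPM in the control, so it was below the control (-2.29) and yet higher than without guides (0.83, adjusted p = 0.0134).

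The acute-phase protein gene SAA1 (-2.91), DENND2A (-2.61), the collagen gene COL5A2 (-2.23), the collectin COLEC10 (-2.20) and xanthine dehydrogenase, XDH (-2.21), were below the control on the log2 scale, a call that XDH lost with that offset. Of these, COLEC10 was also lower with guides than without (-0.85, adjusted p = 0.0174). FRG2 had 2, 0 and 0 counts in VP64 with guides, 0, 0 and 2 without guides and 39, 32 and 56 in the control, where near-identical copies make its counts uncertain and no fold is given. MSTO2P, a pseudogene that shares sequence with its parent, and NCF1, which has near-identical pseudogenes, were also among the lower genes and are uncertain for the same reason.

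The gene lists differed in direction. A list is described by how many tested members were called in each direction and by its median, beside the medians over all 14961 genes, which were -0.01 in VP64 with guides and -0.01 in VP64 without guides. Each count is to be read against the 26.0% of all tested genes that were higher and the 27.1% that were lower with guides, and the 23.6% and 24.0% without guides.

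**Figure D2:**
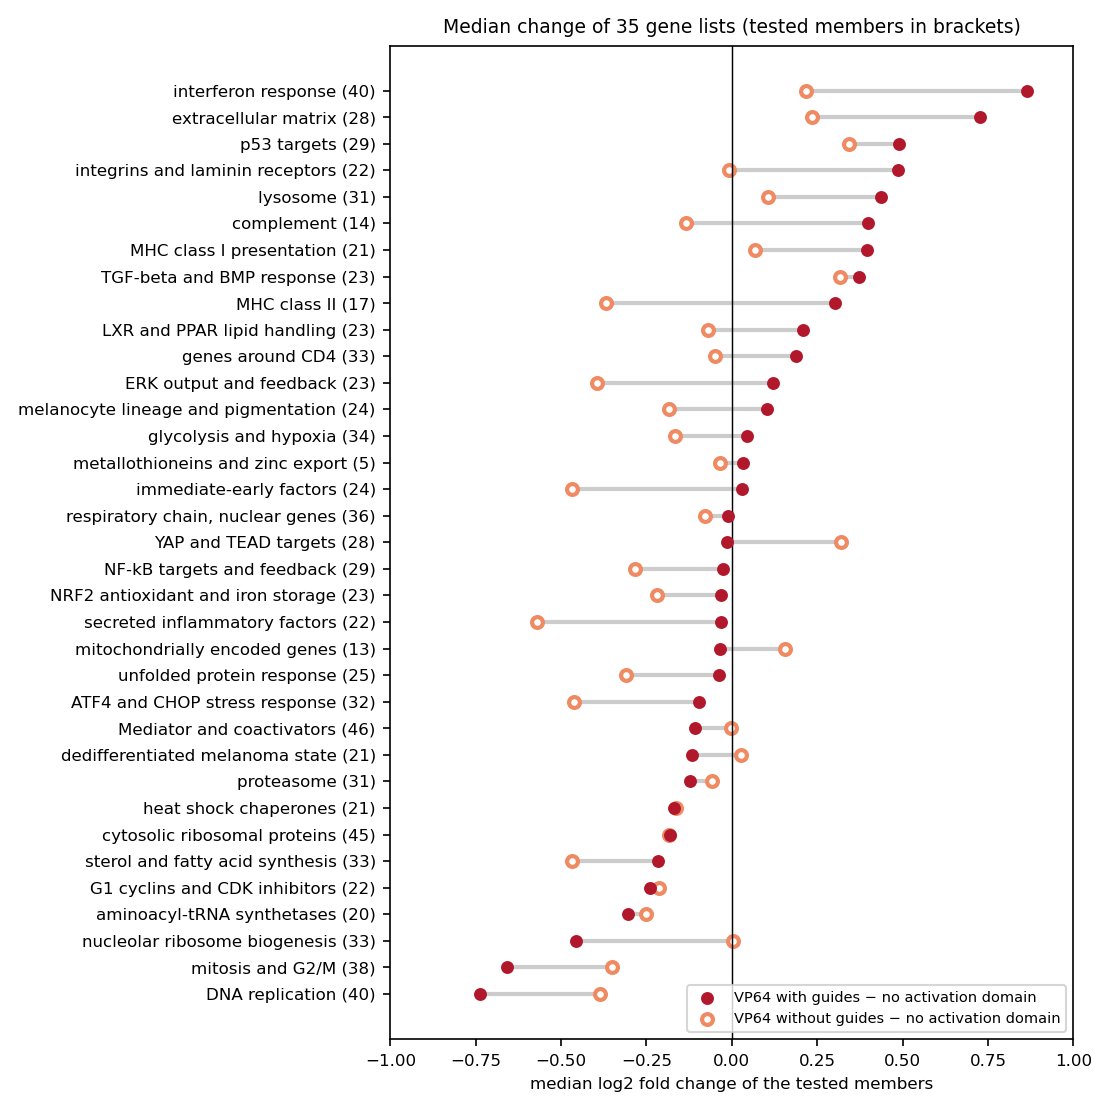
Median log2 fold change of the tested members of 35 gene lists (x axis) in VP64 with guides against no activation domain (filled) and in VP64 without guides against no activation domain (open), with the number of tested members in brackets. Interferon and matrix lists lie far to the right with guides, and DNA replication and mitosis far to the left. MHC class II and ERK output are among several lists with their 2 medians on opposite sides of 0.

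Genes of DNA replication, whose products load and copy the genome in S phase, were lower than the control throughout. All 40 tested members were lower in VP64 with guides and 36 were lower in VP64 without guides, with medians of -0.74 and -0.39. MCM7, a subunit of the replicative helicase, had 254, 239.8 and 248 CPM in VP64 with guides, 301, 286 and 291 CPM without guides and 503, 506 and 504 CPM in the control (-1.03, SE 0.040, adjusted p = 7.76e-15 against the control). The 3 groups did not overlap. UHRF1, which maintains DNA methylation behind the fork, had 164, 156 and 168 CPM with guides, 244, 238 and 244 CPM without guides and 318, 319 and 310.4 CPM in the control (-0.96). RRM2, a ribonucleotide reductase subunit, was -0.82 with guides, and the helicase cofactor CDC45 -1.07. Of the 36 kept members, 33 lay further from the control with guides than without.

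Mitotic genes were lower as well, with 37 of 38 lower with guides (median -0.66) and 32 lower without (median -0.35). KIF11, the motor that separates spindle poles, had 204, 197 and 207 CPM with guides, 262, 259.6 and 251 CPM without guides and 431, 419 and 420.2 CPM in the control (-1.06, SE 0.037, adjusted p = 1.46e-15). CDC20, an activator of the anaphase-promoting complex, was -0.85 with guides, and FOXM1, a transcription factor of G2/M genes, -0.75. MKI67, which encodes the proliferation antigen Ki-67, changed with guides only: it had 262, 277 and 334 CPM with guides, 506, 524 and 503 CPM without and 556, 562 and 489.6 CPM in the control (-0.88, SE 0.067, adjusted p = 2.88e-10). Around the G1 checkpoint, E2F1 was -0.75 and E2F2 -1.13 with guides, and CDKN1A, a CDK inhibitor and p53 target, was higher at 866 ± 38.8 CPM, against 676 ± 21.3 CPM without guides and 457 ± 7.07 CPM in the control (0.92, SE 0.045, adjusted p = 3.4e-13).

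The promoters of these lists were searched for a sequence named with each list, and the search did not use the expression values. E2F sites were searched as TTTCGCGC, TTTCCCGC and TTTGGCGC, and the cell cycle genes homology region as TTTGAA, on both strands of 300-base RefSeq windows (250 before to 50 after the start, GRCh38.p14). Of the 35 DNA replication members with a window, 19 (54.3%) held an E2F site, against 2.74% of all 35116 windows. Of 31 mitotic members, 20 (64.5%) held TTTGAA, against 15.2% of all. Each list was named together with its site, so a high share could be foreseen without any expression value. All windows include those of genes not tested here. This holds for the promoter searches below as well, and whether the sites had a part in the changes was not tested. The first-named members with a match before the start are given 5′ to 3′ with the match nearest to the start in capitals, MCM3 from the minus strand at chr6:52284883-52284942 and MKI67 from the minus strand at chr10:128126424-128126483.
MCM3: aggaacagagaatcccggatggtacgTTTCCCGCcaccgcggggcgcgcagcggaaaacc
MKI67: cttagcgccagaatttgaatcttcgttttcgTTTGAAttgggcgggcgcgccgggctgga
MCM3, another helicase subunit, was -0.59 (adjusted p = 8.91e-11) in VP64 with guides and -0.28 (adjusted p = 6.9e-06) in VP64 without guides, as log2 differences from the control.

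Genes of protein synthesis were lower in both VP64 lines, and the nucleolar list was the exception among them. Of 20 cytosolic aminoacyl-tRNA synthetase genes, which charge tRNAs, 18 were lower with guides and 18 without, among them AARS1 (-0.52 with guides, -0.69, adjusted p = 1.39e-12, without). Of 45 cytosolic ribosomal protein genes, 33 were lower with guides and 35 without, with a median of -0.18 in each line. RPS7 had 401, 388 and 374 CPM with guides, 415, 406 and 419 CPM without guides and 539.7, 547 and 540.4 CPM in the control. Both VP64 lines lay below the control, and their own difference did not pass (-0.09, adjusted p = 0.0523).

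Nucleolar genes of ribosome biogenesis, which make and process ribosomal RNA, were lower mainly with guides. Of 33 tested, 30 were lower with guides and 1, RRN3, was higher (a call lost without VP64 with guides replicate B and without no activation domain replicate C), with a median of -0.45; without guides 14 were lower and 9 higher, with a median of 0.00. In the direct comparison of the VP64 lines, 31 of 33 were lower with guides. NOLC1, a nucleolar phosphoprotein, had 116, 107 and 112 CPM with guides, 170.1, 172 and 170.5 CPM without and 194, 191 and 189.9 CPM in the control (-0.78, SE 0.045, adjusted p = 4.38e-12 against the control). NOP58, a core protein of box C/D particles, was -0.80 with guides and -0.28 (adjusted p = 8.36e-05) without. NPM1, the major nucleolar chaperone, was -0.65 with guides. RRP12, a ribosome assembly factor, was among 7 members that turned, at -0.17 (adjusted p = 0.00643) with guides and 0.44 (adjusted p = 1.33e-07) without, though its call with guides was lost without no activation domain replicate B.

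Interferon-stimulated genes, the antiviral programme switched on through STAT and IRF factors, were higher with guides in 30 of 40 tested cases and lower in 2, with a median of 0.86. Without guides 16 were higher and 5 lower, with a median of 0.22. ISG15, a ubiquitin-like modifier, had 28.9, 30.5 and 24.8 CPM in VP64 with guides, 12.8, 13.4 and 13.4 CPM in VP64 without guides and 4.96, 5.55 and 6.35 CPM with no activation domain (2.31, SE 0.114, adjusted p = 2.08e-13 against the control). The groups did not overlap and the line without guides lay in between. SAMD9, an antiviral factor, was 1.42 with guides and 0.77 (adjusted p = 3.36e-08) without, and IFITM3, which blocks viral entry, 0.86 and 0.51 (adjusted p = 1.54e-08). Of 18 kept members, 14 lay further from the control with guides than without.

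The interferon-stimulated response element was searched as TTTCNNTTT on both strands of the same windows. It was found in 25 of 31 members with a window (80.6%), against 10.5% of all windows. IFIT1, the first-named member, is shown from the plus strand at chr10:89392494-89392553 with the match nearest to its start in capitals.
IFIT1: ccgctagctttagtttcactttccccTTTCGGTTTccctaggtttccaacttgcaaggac
IFIT1, which binds RNA lacking a methylated cap, was 1.69 (adjusted p = 4.3e-11) in VP64 with guides and 0.29 (adjusted p = 0.0626) in VP64 without guides as log2 differences from the control.

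Both classes of antigen presentation genes leaned higher with guides, and they parted without guides, with medians of 0.07 for MHC class I and -0.37 for class II. MHC class I genes, which display peptides to CD8 T cells, were higher with guides in 16 of 21 cases and lower in 1, and without guides 8 were higher and 5 lower. HLA-B had 641, 690.1 and 634 CPM with guides, 411, 404 and 405 CPM without guides and 308, 303 and 289 CPM in the control (1.13, SE 0.049, adjusted p = 6.14e-14 against the control), and B2M, the shared light chain, was 0.64 with guides and 0.24 (adjusted p = 3.41e-06) without. HLA genes are polymorphic and alike, so reads can be split among them. CANX, an endoplasmic reticulum chaperone of this list, was the lower member (-0.14).

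MHC class II genes, which present to CD4 T cells, were higher with guides in 9 of 17 cases and lower in 2, with a median of 0.30. Without guides 14 were lower, with a median of -0.37, and 8 of the 17 turned, beside 2.87% of all genes. CD74, the invariant chain, had 1992, 2274 and 1977 CPM in VP64 with guides, 1089, 1061 and 1065 CPM in VP64 without guides and 1703, 1717 and 1667 CPM with no activation domain. Libraries with guides were the highest and those without the lowest, and the log2 differences from the control were 0.30 (adjusted p = 0.000588) with guides and -0.66 (adjusted p = 3.15e-08) without. HLA-DOA, a modulator of peptide loading, was 0.65 (adjusted p = 2.2e-07) and -0.33 (adjusted p = 0.00196). HLA-DRA was at the control level, at 295 ± 25.3 CPM with guides, 181 ± 3.91 CPM without and 299 ± 8.96 CPM in the control, and its interval with guides was -0.17 to 0.14. RFXAP, a subunit of the factor that binds class II promoters, stayed lower (-0.80).

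**Figure D3:**
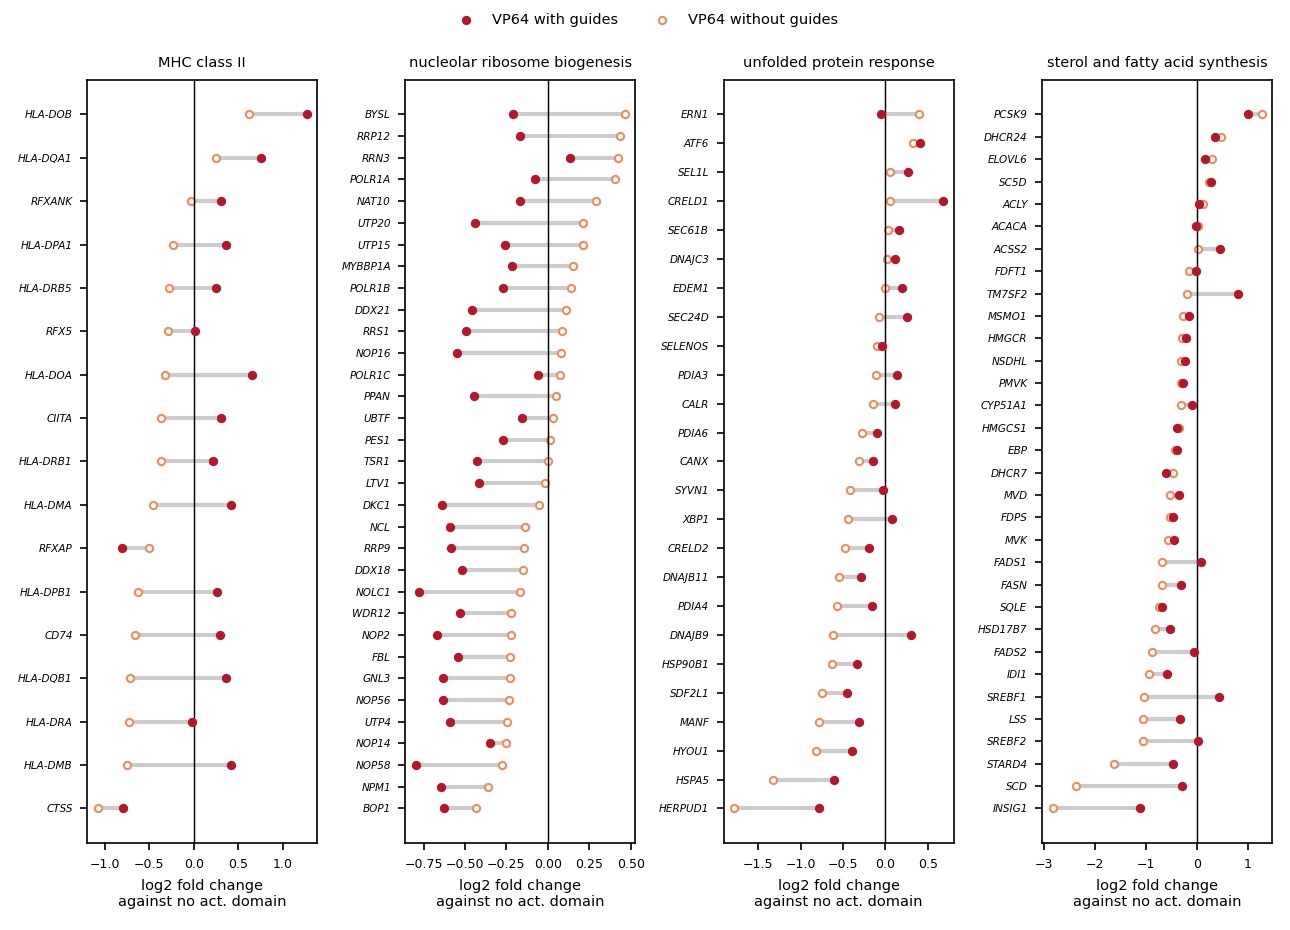
Log2 fold change against no activation domain (x axis) of the tested members of 4 lists (all but 1 in the sterol list), in VP64 with guides (filled) and VP64 without guides (open), the lists having been chosen for display after their values were seen. Most class II members lie right of 0 with guides and left of it without, most nucleolar members lie further left with guides, and the unfolded protein response and sterol members with the largest deficits without guides lie nearer to 0 with guides.

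Most stress genes of the endoplasmic reticulum (ER) were higher with guides than without. Of 25 unfolded protein response genes, which expand the folding capacity of the ER, 11 were lower and 10 higher with guides, with a median of -0.04. Without guides 16 were lower and 2 higher, with a median of -0.31, and 20 of the 25 were higher with guides than without. HSPA5, the main ER chaperone BiP, had 1813, 1902 and 1796 CPM in VP64 with guides, 1102, 1103 and 1132 CPM in VP64 without guides and 2691, 2725 and 2952 CPM in the control. The 3 groups did not overlap, and the level with guides was below the control (-0.60, SE 0.038, adjusted p = 1.89e-11) and above that without guides (0.72, adjusted p = 5.75e-12). HERPUD1, of the ER degradation machinery, was -0.78 with guides and -1.78 (adjusted p = 1.85e-15) without, and HYOU1, an ER chaperone, -0.40 and -0.82 (adjusted p = 3.48e-13). Of 12 kept members, 11 lay closer to the control with guides, while 6 other members changed with guides only. DNAJB9, a cochaperone of BiP that was named after its values were seen, was among 3 that turned (0.30, adjusted p = 0.00146, with guides, -0.62, adjusted p = 7.87e-07, without), and XBP1, a transcription factor of this response named in the same way, was at the control level with an interval of -0.05 to 0.20.

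The ER stress element, CCAAT and CCACG separated by 9 bases, was found on either strand in 6 of 23 members with a window (26.1%), against 0.0769% of all windows. HSPA5, the first-named, is shown from the minus strand at chr9:125241371-125241430 with the match in capitals.
HSPA5: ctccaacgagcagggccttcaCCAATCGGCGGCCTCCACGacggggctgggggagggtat
In this window the capitals mark the copy nearest to the start of the gene.

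The ATF4 and CHOP branch, which answers amino acid shortage and translation stress, held more genes below the control than above it in both VP64 lines. Of 32 tested, 15 were lower and 6 higher with guides, and 20 were lower and 4 higher without guides. DDIT3, which encodes CHOP, had 15.3, 18 and 18.4 CPM with guides, 11.4, 11.3 and 12.1 CPM without and 54.3, 48.6 and 61.5 CPM in the control (-1.67, SE 0.086, adjusted p = 6.26e-13). ATF4 itself was -0.90 with guides and -0.80 (adjusted p = 8.57e-13) without, and ASNS, asparagine synthetase, -0.93 and -1.08 (adjusted p = 1.01e-11), and for these 2 the difference between the VP64 lines did not pass. MTHFD2, of mitochondrial folate metabolism, was lower with guides than without (-0.46, adjusted p = 2.93e-07). DDIT4, an inhibitor of mTORC1, turned: it had 198, 208 and 182 CPM with guides, 48, 46 and 43.6 CPM without guides and 165, 162 and 159 CPM in the control, so it was 0.27 (adjusted p = 0.000928) with guides and -1.82 (adjusted p = 1.49e-14) without. The sequence TGATGNAA, part of the composite site of ATF4 and C/EBP factors, was in 5 of 26 windows of this list (19.2%), against 3.62% of all.

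Sterol and fatty acid synthesis genes, driven by the SREBP factors, were lower with guides in 17 of 33 cases and higher in 6, and lower without guides in 24 and higher in 4, with medians of -0.21 with guides and -0.47 without. SREBF2, the sterol-sensing factor itself, was at the control level, with 57.3, 59.3 and 53.4 CPM with guides, 28.2, 24 and 28.6 CPM without guides and 53.8, 58.8 and 56.2 CPM in the control. The libraries with guides overlapped the control and lay above all libraries without guides, and the interval of the difference from the control was -0.14 to 0.16. SCD, stearoyl-CoA desaturase, came nearly as far, at 407, 477 and 406 CPM with guides, 106, 102 and 102 CPM without and 527, 524 and 539.7 CPM in the control, and it was still called lower (-0.30, adjusted p = 0.00103). INSIG1, which retains SREBP in the ER, was -1.12 with guides and -2.83 (adjusted p = 1.38e-16) without. FADS2, a desaturase, was at the control level with a difference of -0.06. So was ACSL3, an acyl-CoA synthetase that is not a member of this list (0.04). The cholesterol enzymes FDPS (-0.48) and IDI1 (-0.59) stayed lower. SREBF1, the paralogue of SREBF2, was among 2 members that turned (0.43, adjusted p = 0.000172, with guides, -1.04, adjusted p = 2.55e-09, without). It was named after its values were seen, and its call with guides was lost with the offset for effective length.

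A sterol regulatory element, searched as TCACNCCAC on both strands, was in 1 of 26 windows of the list (3.85%), that of SREBF2, against 1.13% of all. The window is shown from the plus strand at chr22:41832946-41833005, since SREBF2 was the only list member with a match, given in capitals.
SREBF2: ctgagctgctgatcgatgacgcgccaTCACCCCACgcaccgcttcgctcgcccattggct

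YAP and TEAD targets, which respond to cell shape and the Hippo pathway, were mostly higher without guides and evenly split with them. With guides 11 of 28 were higher and 10 lower (median -0.01), and without guides 18 were higher and 3 lower (median 0.32). In the direct comparison 18 were lower with guides than without. CCN2, a matricellular protein, had 299, 249.6 and 268 CPM in VP64 with guides, 558, 524 and 501 CPM in VP64 without guides and 335, 358 and 328 CPM with no activation domain. It turned, at -0.32 (adjusted p = 0.000241) with guides and 0.63 (adjusted p = 5.28e-08) without. ANKRD1 and AMOTL2, 2 further targets of YAP, were at the control level with intervals of -0.20 to 0.15 and -0.09 to 0.15. THBS1, thrombospondin, stayed higher (0.60 with guides, 0.96, adjusted p = 1.49e-14, without). WWTR1, which encodes the YAP paralogue TAZ, moved opposite to these targets, with 468 ± 27.9 CPM with guides, 168 ± 4.13 CPM without and 278 ± 8.36 CPM in the control.

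The TEAD site ACATTCC was found on either strand in 2 of 21 windows of this list (9.52%), against 3.46% of all. CCN2 is shown from the minus strand at chr6:131951435-131951494, where the match in capitals reads on the opposite strand of the gene.
CCN2: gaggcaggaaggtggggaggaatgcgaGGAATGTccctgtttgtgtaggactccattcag

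**Figure D4:**
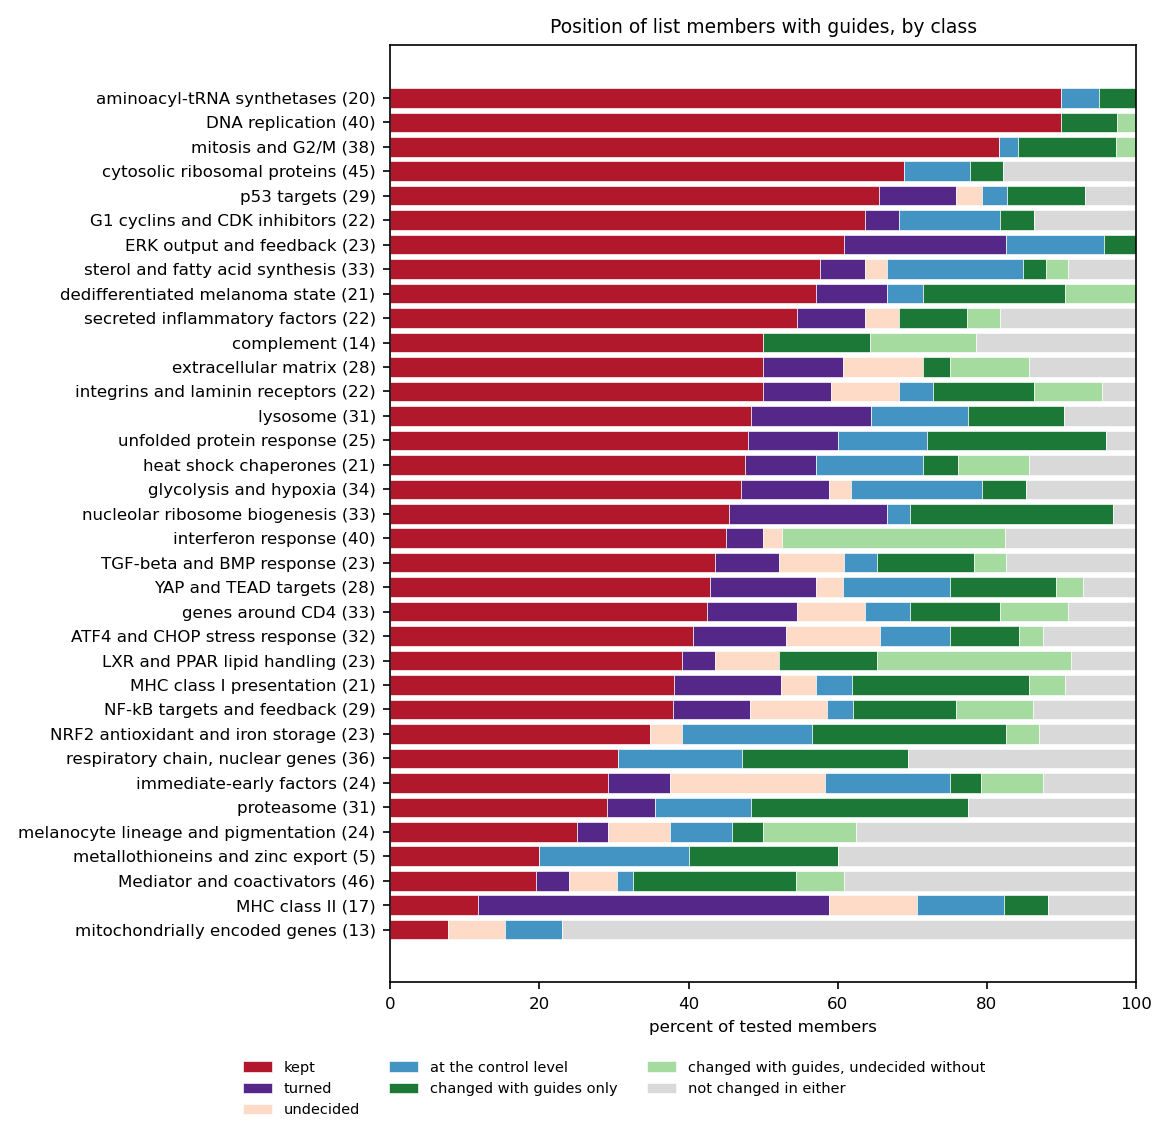
Share of tested members (x axis, percent) of each of 35 lists in 7 classes defined by the calls and intervals in the VP64 lines against no activation domain, ordered by the share kept. Aminoacyl-tRNA synthetases and DNA replication are at the top with 18 of 20 and 36 of 40 kept, and 8 of 17 MHC class II genes turned.

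ERK pathway genes were mixed with guides and mostly lower without them. Of 23 tested, 12 were higher and 8 lower with guides (median 0.12), and 8 were higher and 14 lower without guides (median -0.40). The count of lower members with guides was 5 when VP64 with guides replicate C, or no activation domain replicate A or B, was left out. SPRY2, a feedback inhibitor of the pathway, had 139, 149 and 135 CPM with guides, 75.3, 72.5 and 74 CPM without guides and 141, 149 and 145 CPM in the control, and its interval with guides was -0.15 to 0.08. DUSP5, an ERK phosphatase, stayed lower (-0.62), as did MYC (-0.60), while the inhibitor SPRED3 stayed higher (0.80). Among 24 immediate-early factors, 6 were lower and 6 higher with guides, shares near those of all genes tested (27.1% and 26.0%), and 13 were lower and 5 higher without guides. The count of higher members with guides was 3 without VP64 with guides replicate B. KLF4 was -1.16 with guides and -1.77 (adjusted p = 5.42e-11) without, and IER3 was at the control level with an interval of -0.13 to 0.08.

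The inflammatory chemokines CXCL8 and CXCL1 were low in both VP64 lines. CXCL8 had 111, 93.4 and 97.8 CPM in VP64 with guides, 97.6, 88 and 99.6 CPM in VP64 without guides and 222, 240.4 and 228 CPM with no activation domain (-1.20, SE 0.084, adjusted p = 9.21e-11 against the control). All 6 VP64 libraries lay below the control, and the difference between the VP64 lines did not pass (0.08, adjusted p = 0.504). CXCL1 was -1.60 with guides and -1.52 (adjusted p = 9.32e-14) without. Of 29 NF-kB targets, 12 were lower and 9 higher with guides, and 16 were lower and 2 higher without. BIRC2, an inhibitor of apoptosis, changed with guides only (-0.76), and BIRC3 was kept (-0.67). In the list of secreted inflammatory factors, IL11, a cytokine of the IL-6 family, was higher at 78.5 ± 6.24 CPM with guides, 120.2 ± 4.45 CPM without and 29.2 ± 1.29 CPM in the control (1.43, SE 0.076, adjusted p = 1.1e-12), and the chemokine CXCL16 was 1.31.

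Targets of p53, the DNA damage-responsive tumour suppressor, were higher in 21 of 29 cases with guides and lower in 4, and in 20 and 4 without guides, with medians of 0.49 and 0.34. TNFRSF10B, a death receptor, had 206, 216 and 210.1 CPM with guides, 195, 207 and 195 CPM without guides and 124, 119 and 122 CPM in the control (0.79, SE 0.037, adjusted p = 2.08e-13), and the difference between the VP64 lines did not pass (0.08, adjusted p = 0.0823). TP53I3 was 1.12 with guides and 0.48 (adjusted p = 2.23e-05) without, ZMAT3 0.93 and 1.14 (adjusted p = 1.89e-11), and FAS 0.95 and 1.31 (adjusted p = 5.5e-12). TGF-beta and BMP response genes were higher in 14 of 23 cases with guides and 13 without, and lower in 2 in each line. ID1, a BMP target, was 0.81 with guides, and LTBP3, which binds latent TGF-beta, changed with guides only (1.27).

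Matrix, adhesion and lysosomal genes were higher in more cases with guides than without. Of 28 extracellular matrix genes, 19 were higher and 2 lower with guides (median 0.73), and 14 were higher and 6 lower without (median 0.23). SPARC, a collagen-binding matricellular protein, had 3989, 4304 and 3961 CPM with guides, 2262, 2239 and 2217 CPM without guides and 1942, 1979 and 2025 CPM in the control (1.04, SE 0.037, adjusted p = 2.01e-15). COL5A1 was 1.33 with guides and TIMP1, a metalloproteinase inhibitor, 0.76. TIMP3 stood apart, at 764 ± 86 CPM with guides, 171 ± 6.93 CPM without and 834 ± 14.1 CPM in the control, and with an interval of -0.32 to 0.07 it was undecided. Of 22 integrins and laminin receptors, 15 were higher and 3 lower with guides and 8 and 8 without, among them ITGA5 (1.04) and ITGA7 (2.48). Of 31 lysosomal genes, 23 were higher and 1 lower with guides, and 15 and 9 without. PSAP, the saposin precursor, had 1393, 1532 and 1433 CPM with guides, 752, 731 and 743 CPM without and 552, 560.3 and 552 CPM in the control (1.39, SE 0.049, adjusted p = 2.23e-15), and GRN, progranulin, was 1.29.

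Fibroblast markers summed to 80.3 to 80.7 CPM in VP64 with guides, 61.5 to 62.3 CPM without guides and 34.0 to 41.2 CPM in the control, with 3 of 4 tested members higher with guides (ACTA2 1.15, COL1A1 1.16, LUM 1.37) and 1 of 6 at 0 throughout VP64 with guides. Of 8 markers of myeloid cells, which express class II, 6 were lower and 1 higher with guides, with sums of 141 to 164 CPM with guides, 109 to 124 CPM without and 108 to 141 CPM in the control. CD68 carried most of the sums in the VP64 lines, with means of 116.2 CPM with guides and 83.7 CPM without, but not in the control (54.35 CPM). It was 1.10. Of the lower markers, CSF1R averaged 16.3 CPM with guides and 34.22 CPM in the control, and CD14 was -2.11. The part of the fibroblast and myeloid markers in the matrix and class II results was not tested.

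Pigment cell and metabolic lists were mixed. Of 24 melanocyte lineage genes, 7 were higher and 4 lower with guides, shares near or below the 26.0% and 27.1% of all genes, and 3 and 8 without. The M-box core, searched as TCATGTG on both strands, was in 5 of 17 promoter windows of this list (29.4%), against 2.92% of all. S100B had 68.4, 84 and 69.6 CPM with guides, 24.8, 21.8 and 24.5 CPM without guides and 17.7, 16.3 and 15.4 CPM in the control (2.18, SE 0.124, adjusted p = 2.84e-12), and SOX10, the lineage factor, changed with guides only (0.47). NGFR, the neurotrophin receptor that marks dedifferentiated melanoma, stayed lower at 216 ± 15.7 CPM with guides, 125 ± 8.69 CPM without and 638 ± 6.31 CPM in the control, although with guides it was higher than without (0.80, adjusted p = 6.78e-08). Of 34 glycolysis and hypoxia genes, 11 were higher and 11 lower with guides and 6 and 21 without. ALDOC, an aldolase, was 2.05 with guides and 0.94 (adjusted p = 1.26e-09) without, P4HA2, a collagen prolyl hydroxylase, 1.09 and 0.61 (adjusted p = 9.16e-12), and BHLHE40, a hypoxia-induced repressor, turned (1.07, adjusted p = 5.91e-13, with guides and -0.15, adjusted p = 0.0291, without). ANGPTL4, an inhibitor of lipoprotein lipase, kept part of its excess, at 17.6 ± 3.51 CPM with guides, 59.3 ± 5.55 CPM without and 8.25 ± 0.543 CPM in the control.

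Among antioxidant genes, FTH1, the ferritin heavy chain (0.48), changed with guides only, while thioredoxin, TXN (-0.63), stayed lower. The heat shock gene HSPA1B was at the control level, although its near-identical copy HSPA1A makes its counts uncertain, and HSPB8 stayed higher (1.57 with guides, 1.67, adjusted p = 2.2e-12, without). Of 46 Mediator and coactivator genes, among them known partners of VP64, 8 were higher and 16 lower with guides and 10 and 5 without. CREBBP, a histone acetyltransferase, was 0.30 with guides and 0.65 (adjusted p = 7.33e-09) without, and TRRAP, a scaffold of acetyltransferase complexes, was at the control level with an interval of -0.16 to 0.09. Of 13 mitochondrially encoded genes, MT-CO3 was higher with guides (0.17), a call lost without VP64 with guides replicate C and without no activation domain replicates A or C in turn.

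The remaining genes at the control level included TRAM2, of the translocon, with 225, 235 and 249 CPM in VP64 with guides, 393, 423 and 421 CPM without guides and 238, 240.3 and 237 CPM in the control, and an interval of -0.11 to 0.08. The histone methyltransferase KMT2D (0.02), the ubiquitin ligase CBL (0.01), WWC2 (-0.07), the corepressor subunit HMG20B (0.06), the glycolytic regulator PFKFB4 (0.01) and the phosphatase PTPRH (0.05) were within the margin as well. Without guides their log2 differences from the control had been 0.73 (adjusted p = 9.09e-09), 0.59 (adjusted p = 1.29e-08), 0.59 (adjusted p = 3.15e-08), -1.01 (adjusted p = 8.15e-11), -0.91 (adjusted p = 1.33e-09) and -0.88 (adjusted p = 4.79e-08) in the same order.

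**Figure D5:**
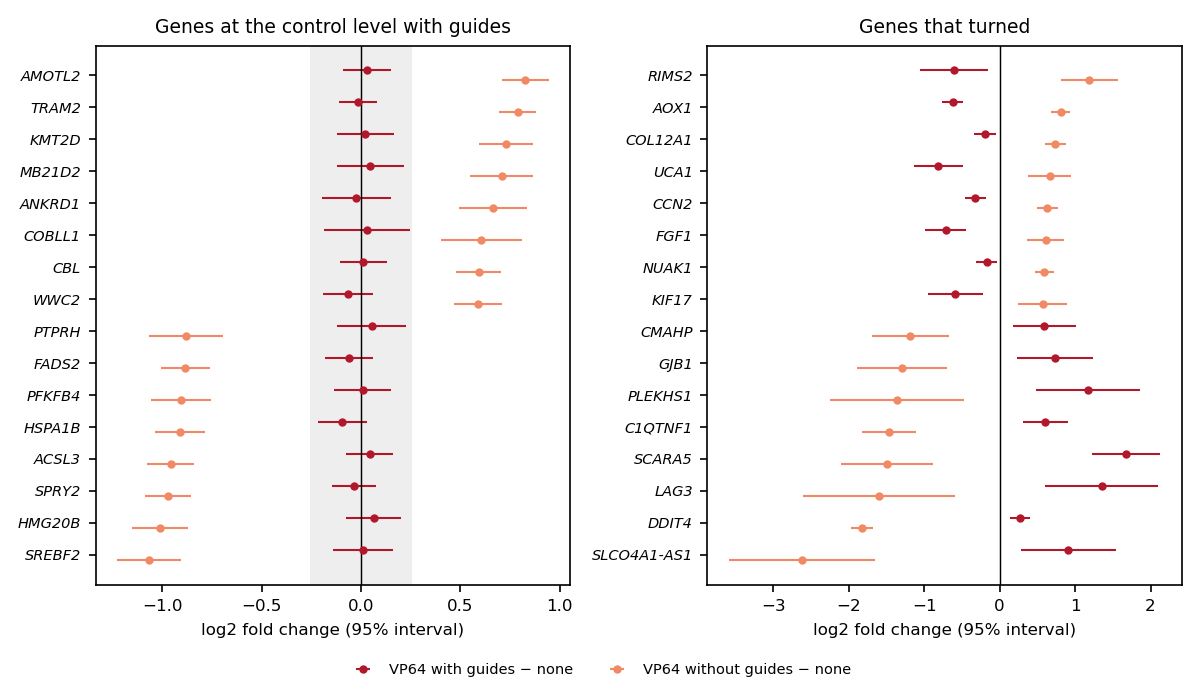
Log2 fold change against no activation domain with its 95% interval (x axis) in VP64 with guides (dark) and VP64 without guides (light) for the 16 named genes at the control level and the 16 that turned. The shaded band marks the margin of 0.25 on either side of 0, which holds every interval with guides in the left panel.

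Of the genes that turned, SCARA5, a scavenger receptor, had 4.7, 5.47 and 6.38 CPM with guides, 0.563, 0.665 and 0.59 CPM without guides and 1.52, 2.08 and 1.57 CPM in the control (1.68, SE 0.22, adjusted p = 9.94e-07 against the control). AOX1, aldehyde oxidase, had the opposite order, at 36.7, 31.6 and 35.2 CPM with guides, 92.5, 92.7 and 93.2 CPM without and 52.2, 55.6 and 50.8 CPM in the control (-0.62, SE 0.067, adjusted p = 6.65e-08). FGF1 (-0.72, adjusted p = 8.83e-05, with guides, 0.61, adjusted p = 0.000179, without), the long noncoding RNA UCA1 (-0.82, adjusted p = 0.00012, and 0.66, adjusted p = 0.000338), C1QTNF1 (0.61, adjusted p = 0.00124, and -1.47, adjusted p = 2.58e-07) and PLEKHS1 (1.17, adjusted p = 0.00473, and -1.36, adjusted p = 0.00919) also passed in opposite directions, C1QTNF1 not with the offset for effective length. COL12A1, NUAK1 and RIMS2 lost their call with guides under several alternatives, among them leaving out VP64 with guides replicate B for COL12A1 and RIMS2 and replicate A for NUAK1, and GJB1 and CMAHP lost theirs without VP64 with guides replicates B and C, in that order.

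Genes that changed with guides only began with RCN3 and PTMS. CTHRC1, a secreted glycoprotein, had 50.9, 55.5 and 50.1 CPM with guides, 20.6, 17.1 and 17.5 CPM without guides and 18.5, 16.6 and 19.1 CPM in the control (1.53, SE 0.077, adjusted p = 4.64e-13). TRIM16L (1.29), the transporters SLC16A6 (1.19) and SLC26A2 (1.05) and SMIM14 (1.17) were higher. CD274, which encodes the checkpoint ligand PD-L1, had 20.5, 16.1 and 20.2 CPM with guides, 38.2, 38.9 and 39.9 CPM without and 40.0, 34.6 and 36.6 CPM in the control (-0.98, SE 0.091, adjusted p = 6.68e-09). The transcription factor ETS1 (-0.95), the lysophosphatidic acid receptor LPAR1 (-0.92), DLC1 (-0.90), SNHG15 (-0.93), AJAP1 (-0.88) and the DNA repair ubiquitin ligase RAD18 (-0.83) were lower.

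Genes around CD4 on chromosome 12 were higher with guides in 19 of 33 tested cases and lower in 6, and 11 were higher and 12 lower without guides. PTMS, parathymosin (ENSG00000159335.15, chromosome 12, 6765516 to 6770952), had 1076, 1067 and 1025 CPM with guides, 256, 239 and 242 CPM without guides and 225, 243 and 220.5 CPM in the control (2.20, SE 0.053, adjusted p = 7.07e-18). Libraries with guides stood apart and the rest lay close together. LAG3, an immune receptor gene that lies between PTMS and CD4 (ENSG00000089692.8, chromosome 12, 6772512 to 6778455), turned, at 2.45, 2.27 and 2.65 CPM with guides, 0.205, 0.307 and 0.429 CPM without and 1.09, 1.01 and 0.783 CPM in the control (1.35, SE 0.36, adjusted p = 0.00288). Its levels without guides and in the control rest on few reads, so its place in this class is uncertain. CLSTN3 (1.46) and MLF2 (0.64) were higher in both VP64 lines, and CDCA3, a mitotic gene (-0.66), and PHB2, a prohibitin (-0.45), were lower in both.

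The line with the same guides and 5xALFA-dCas12a-VP64 but with the nanobody fused to p65, an activation domain of the RELA protein (nanobody-p65), was used to ask how far the complete VP64 system differed from another complete system. In VP64 with guides against p65 with guides, 1185 genes were called (7.92% of those tested), 628 higher and 557 lower. The median size of the log2 difference was 0.10, and 22 of the higher and 43 of the lower genes reached 2-fold. The counts were 381 and 300 without VP64 with guides replicate B, and 384 and 325 without p65 with guides replicate C. Of 13 mitochondrially encoded genes 9 were lower in VP64 with guides than in p65 with guides, with a median of -0.33, and 12 were higher in p65 with guides than in the control. That count of 9 was 3 without VP64 with guides replicate A, 1 without its replicate B and 2 without p65 with guides replicate A. Of 24 immediate-early factors 11 were higher in VP64 with guides, of 23 ERK pathway genes 10, of 34 glycolysis and hypoxia genes 11, and of 28 extracellular matrix genes 9, with 2 lower. In the dedifferentiated melanoma list 8 of 21 were higher and 3 lower, and of 28 YAP and TEAD targets 4 were higher and 10 lower (6 without VP64 with guides replicate B). In the nucleolar list 10 of 33 were lower. Of 17 MHC class II genes 4 were higher, and 1 without VP64 with guides replicate B or without p65 with guides replicate C. Against the shared control, the median of the DNA replication list was -0.74 in VP64 with guides and -0.75 in p65 with guides, that of the interferon list 0.86 and 0.80, and that of MHC class II 0.30 and 0.09.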

How the data were processed

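RNA was sequenced from 15 libraries of 5 MelJuSo lines, 3 per line. Per the submitters' processing notes, reads were aligned with STAR and quantified with RSEM on hg38. Their versions, the annotation and the strand setting are not stated by these sources. Each deposited file holds RSEM expected counts (estimated by the authors, so not always whole), TPM and effective lengths per gene, per the file headers. Symbols and positions came from matching all 58721 gene identifiers to GENCODE release 29, and 41937 had a current symbol. The 92 spike-in entries were left out.

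Expected counts were rounded and fitted in edgeR 4.0.16 (R 4.3.3, limma 3.58.1) by the quasi-likelihood test, with 1 coefficient per line over all 15 libraries, TMM factors of 0.983 to 1.01 and a filterByExpr minimum of 10 counts. The biological coefficient of variation was 5.45%. P-values were Benjamini-Hochberg adjusted over 14961 genes. CPM used the same factors, and ± is the SD over 3 libraries. The procedure was tested on simulated data. TPM served only for the permutation test of CD4.

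The genes named were CD4, up to 15 per direction with the largest fold change, up to 8 per direction for each class, up to 4 and 2 members per list with the smallest p with and without guides, and 5 per direction against p65, at a mean of at least 1 CPM where chosen by size. Some genes that this rule selects are not reported here. The libraries, lists and rules were chosen with earlier results of these data known. Alternatives were DESeq2 1.42.0 (its test and its size factors), other filters, only the lines compared, unrounded counts, a replicate block, an effective-length offset, a margin of 0.5 and leaving out each library.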

Additional observations from a re-analysis of the deposited data

Results flagged for a closer look

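Of the genes with the largest differences between the complete systems, 9 are given here, since VP64 with guides and p65 with guides then differ in their effect against the same control. Each difference was tested as VP64 with guides minus p65 with guides in edgeR's quasi-likelihood fit.

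Higher with p65 were TFEC, a transcription factor of the MiT family, TFCP2L1, CMAHP, a pseudogene, and the transporter ABCC2. TFEC averaged 1.41 ± 0.175 CPM in VP64 with guides, 6.88 ± 0.488 CPM in p65 with guides and 0.927 ± 0.168 CPM in the control (log2 difference between the systems -2.29, SE 0.236, adjusted p = 9.16e-07). TFCP2L1 averaged 14.2 ± 0.0754, 51.6 ± 4.16 and 2.33 ± 0.439 CPM in the same lines (-1.86, SE 0.090, adjusted p = 6.09e-12). For CMAHP and ABCC2 the log2 differences were -1.57 and -1.46.

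Higher with VP64 were the immediate-early factor FOS, SLCO4A1-AS1, the protease CTSW, PCED1B and the long noncoding RNA MANCR. FOS had 383, 256 and 132 CPM in VP64 with guides, 101, 82.8 and 44.9 CPM in p65 with guides and 229.7, 188 and 101 CPM in the control, with replicate A the highest and replicate C the lowest in each of these lines (log2 difference between the systems 1.76, SE 0.349, adjusted p = 0.00252). For SLCO4A1-AS1 the log2 difference was 1.76, and it is uncertain because reads of the overlapping gene on the other strand cannot be told apart without strandedness. CTSW, PCED1B and MANCR differed by 1.60, 1.59 and 1.53, and CTSW averaged 0.882 ± 0.367 CPM in VP64 with guides and 0.292 ± 0.0564 CPM in p65 with guides.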

How the results depend on the processing

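Of 186 values recomputed for the counts of genes and CD4, 171 were the same and 15 moved. A count was the same if it stayed within 1.5 times, and CD4 if it kept its call and its sign. For the named genes the call against the control was the same in 3700 of 3799 cases, with 77 calls lost and 22 gained. No gene changed its sign where it was called in the main fit or in the alternative. The size of their differences, and the sign of genes called in neither fit, were not compared. Of 980 list counts, 59 moved. With a margin of 0.5, 1529 genes were at the control level, 474 undecided and 2133 changed with guides only. A filter at a mean of 1 CPM left 241 genes at least 2-fold lower. With only the lines compared, 396 genes were higher and 310 lower against p65 with guides. An effective-length offset was also used, for which 15 lengths under 1 were set to 1. It gave 502 genes at the control level, 198 turned and 871 changed with guides only, and 259 higher and 178 lower against p65. With this offset 3226 genes were kept, where the main fit had 4694. Against the control 3129 genes were higher and 3021 lower, where the main fit had 3892 and 4055. These counts fell, but they stayed within 1.5 times and so were labelled the same. The offset also lost the calls of MYO7B (-1.53) and XDH (-1.27). The cause was not tested.

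Leaving out each library in turn gave 381 to 617 genes higher and 300 to 528 lower against p65, 3517 to 3979 higher and 3447 to 3669 lower against the control, 4157 to 4647 kept, 797 to 1001 at the control level and 309 to 445 turned. The CD4 log2 fold change was 8.84 to 9.56. Without VP64 with guides replicate A, RIMS2 was -0.99 and COL12A1 -0.09. Where 2 libraries remained in a line, the fit pooled the spread of all lines. Deviations from the line means did not follow the replicate letter (r of -0.0049, -0.0265 and 0.0055 between same-letter libraries of VP64 with guides and no activation domain), so over all genes the letters do not pair the samples. FOS was an exception, with replicate A highest and replicate C lowest in each line tabulated. Its log2 difference from the control was 0.58 (adjusted p = 0.153), and 0.53 (adjusted p = 6.55e-05) with the replicate block. Over the alternatives its adjusted p ran from 2.32e-35, with no filter on low counts, to 0.652, without VP64 with guides replicate A. The FOS levels of VP64 with guides overlapped those of the control, so the smallest of these values is not read as a difference. Why that setting gave it was not tested. With the replicate block, 3840 genes were higher and 3993 lower against the control, 4601 were kept, 948 at the control level and 411 turned.

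Depth limits genes near 1 CPM, such as CTSW and MANCR, where few reads stand behind each value.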
